A study of Mus musculus with 6 samples.

Results

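The 10 Notch pathway genes described here are the ligand genes Jag1 and Dll4, the receptor genes Notch1, Notch2, Notch3 and Notch4, the genes of the nuclear proteins Rbpj and Maml1, and Dtx1 and Hes1, which are both known as targets of the pathway. They were chosen by name and make up 10 of the 34245 genes of the expression table. Their RNA was measured by RNA-seq in 3 peripheral T-cell lymphomas (PTCL) that arose in the lymph nodes of FVB mice heterozygous for a conventional Dnmt3b knockout allele (Dnmt3b+/-). Dnmt3b encodes a de novo DNA methyltransferase, and the allele is carried in the germ line, so that tumor cells and all other cells of the lymph node have the same genotype. Total RNA of each tumor gave 1 library, and neither a sort of the cells nor the age of the mice is given in the sources used here. Bisulfite sequencing of 2 Dnmt3b+/- and 1 Dnmt3a-/- lymphomas was not analysed here. All RNA samples belong to 1 group, which leaves no second group to test against, and every value describes these 3 tumors.

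Notch receptors are cell surface proteins that are switched on by ligands of the Delta-like and Jagged families on a neighboring cell. Ligand binding exposes the receptor to cleavage by ADAM proteases and then by gamma-secretase, which frees the intracellular domain to enter the nucleus, bind Rbpj and recruit a Mastermind protein to target genes. In the thymus the pathway, through Notch1 and Dll4, commits progenitors to the T-cell lineage, and Notch1 is a known oncogene of immature T-cell leukemia, while mature T-cells use the pathway again when they are activated.

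Levels are given as FPKM, which divides the reads of a gene by the length of its exons and by the size of the library, so that genes may be set side by side. The libraries of tumors 1, 2 and 3 had 30726570, 18969988 and 20770928 reads, and the reads on each gene were recovered from these depths. The table gives unread genes a value worth 0.9 read, and for these a level of up to 3 reads was allowed. A level above 0.2 FPKM in every tumor, counted below for each list, was reached by 36.7% of all 34197 gene symbols. Ratios between tumors are given with exact 95% intervals on the recovered reads. Intervals and limits cover counting error only, and each tumor is a single library. Other scalings move the tumors against each other: scaling to an equal sum shifted all log2 values by 0.13, -0.01 and -0.12 in tumors 1, 2 and 3, and median-of-ratios factors shifted them by -0.14, 0.03 and 0.09.

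The label of the samples was first set against T-cell markers. All 7 T-cell genes were above 0.2 FPKM in every tumor, with sums of 708.4, 862.3 and 824.3 FPKM in tumors 1, 2 and 3, and Trbc1, a constant segment of the T-cell receptor beta chain, had the highest mean. The coreceptor genes Cd8a, Cd8b1 and Cd4 summed to 721.6, 292.0 and 669.6 FPKM and were all lowest in tumor 2. The most abundant, Cd8b1, had 434.7, 166.0 and 443.4 FPKM, and Cd4 had 28.4, 4.28 and 8.22 FPKM. Of 6 genes of immature thymocytes, Rag2 and Ptcra had no read in any tumor, and Rag1 had 2 reads in tumor 1 and none in the other tumors. The summed level of that list was 15.5, 2.60 and 6.05 FPKM, and its most abundant gene by mean was Cd1d1, which other lymphoid and myeloid cells also express. Dntt, which adds bases at receptor gene junctions in immature lymphocytes, had 10.3, 0.0743 and 0.747 FPKM, but its exon length did not give whole reads. Arpp21, also of that list, had 149 reads in tumor 1, none in tumor 2 and 1 read in tumor 3.

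Ligand genes were low in all tumors. Jag1 (ENSMUSG00000027276), a Jagged ligand, had 0.229, 0.389 and 0.0744 FPKM in tumors 1, 2 and 3, on 41, 43 and 9 reads. Dll4 (ENSMUSG00000027314), the Delta-like ligand that thymic epithelium and sprouting vessels are known to carry, had 0.355, 0.575 and 0.0375 FPKM on 42, 42 and 3 reads. Tumor 2 was the highest and tumor 3 the lowest for both genes. The Jag1 level of tumor 2 was 5.23 times that of tumor 3 (interval 2.52 to 12.2) and 1.70 times that of tumor 1 (1.08 to 2.67). For Dll4 the ratio of tumor 2 to tumor 3 was 15.3 (4.90 to 77.3), a wide interval set by the 3 reads of tumor 3, and the ratio of tumor 1 to tumor 3 was 9.46 (3.02 to 47.7). Between tumors 2 and 1 the Dll4 ratio was 1.62 (1.03 to 2.55). An exon of the antisense gene Gm14207 covers 5.56% of the exon bases of Dll4, and as the strand used in counting is not stated, reads in that stretch are uncertain.

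The remaining ligand genes did not add a high level. Dll1, a Delta-like ligand, had 0.131, 1.35 and 0.137 FPKM on 17, 108 and 12 reads. Jag2, a Jagged ligand, had 0.350, 0.681 and 0.249 FPKM, and Dll3 had no read in any tumor. Dll1 and Jag2 were both highest in tumor 2, as Jag1 and Dll4 were. Summed over the 5 ligand genes, the level was 1.07, 2.99 and 0.498 FPKM, and the gene with the largest share was Dll1 in tumor 2 (45.1%) and Jag2 in tumor 3 (50.01%). In tumor 1 Dll4 and Jag2 took like shares, 33.3% on 42 reads and 32.9% on 75 reads. The summed level of the receptors was 13.4, 7.56 and 29.1 times that of the ligands in tumors 1, 2 and 3.

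Among receptors, Notch1 and Notch2 made up nearly all of the RNA. Notch1 (ENSMUSG00000026923), on the minus strand at chr2:26457903-26516663 of mm10, had 8.56, 13.9 and 9.71 FPKM in tumors 1, 2 and 3, on 3743, 3756 and 2870 reads. Notch2 (ENSMUSG00000027878), the receptor that marginal zone B-cells and some myeloid cells are known to need, had 5.37, 7.41 and 4.69 FPKM on 1778, 1515 and 1051 reads. Tumor 2 was the highest for both receptors under each of the 3 scalings. Tumor 2 had 1.63 times the Notch1 level of tumor 1 (1.55 to 1.70) and 1.43 times that of tumor 3 (1.36 to 1.505). Tumor 3 was 1.13 times tumor 1 (1.08 to 1.19), but their order turned when each tumor was scaled to an equal sum. For Notch2 the ratio of tumor 2 to tumor 3 was 1.58 (1.46 to 1.71), and the order of tumors 1 and 3, with a ratio of 1.14 (1.06 to 1.24), turned with median-of-ratios factors. Notch1 was higher than Notch2 in every tumor. The antisense genes Gm13568 and 0610009E02Rik cover 2.91% and 7.50% of the exon bases of Notch1, and Gm42820 on the same strand covers 5.02% of those of Notch2, so reads in these stretches are uncertain.

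Notch3 and Notch4 were much lower than both. Notch3 (ENSMUSG00000038146), known from pericytes and smooth muscle of vessels and from immature thymocytes, had 0.162 FPKM on 40 reads in tumor 1, 0.452 FPKM on 69 reads in tumor 2 and no read in tumor 3. Notch4 (ENSMUSG00000015468), a receptor known mainly from endothelium, had 0.214, 0.876 and 0.102 FPKM on 53, 134 and 17 reads. Tumor 2 was again the highest and tumor 3 the lowest. For Notch3, 3 reads in tumor 3 would be 0.0179 FPKM, against which the ratio is 25.3 for tumor 2 and 9.06 for tumor 1. The lower ends of the exact intervals are 19.9 and 6.997, and the ratio of tumor 2 to tumor 1 was 2.79 (1.87 to 4.23). The Notch4 level of tumor 2 was 8.63 times that of tumor 3 (5.19 to 15.3) and 4.10 times that of tumor 1 (2.96 to 5.74), and tumor 1 had 2.11 times that of tumor 3 (1.20 to 3.88). The antisense gene Gm17276 covers 6.03% of the exon bases of Notch3. In bulk samples such as these, fewer cells of a type and less RNA per cell cannot be told apart.

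As a share of the summed FPKM of the 4 receptors, Notch1 took 59.8%, 61.4% and 66.9% in tumors 1, 2 and 3, which averages to 62.7% ± 3.71 (SD, n = 3). Notch2 was 37.5%, 32.7% and 32.3% in turn. The Notch4 share was 1.496%, 3.87% and 0.700%, and the Notch3 share was 1.13% and 2.00% in tumors 1 and 2. A share within a tumor does not depend on the scaling of the tumors, and the order Notch1, Notch2, Notch4, Notch3 held in each of the 3 tumors. The summed receptor level was 14.3, 22.6 and 14.5 FPKM.

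**Figure D1:**
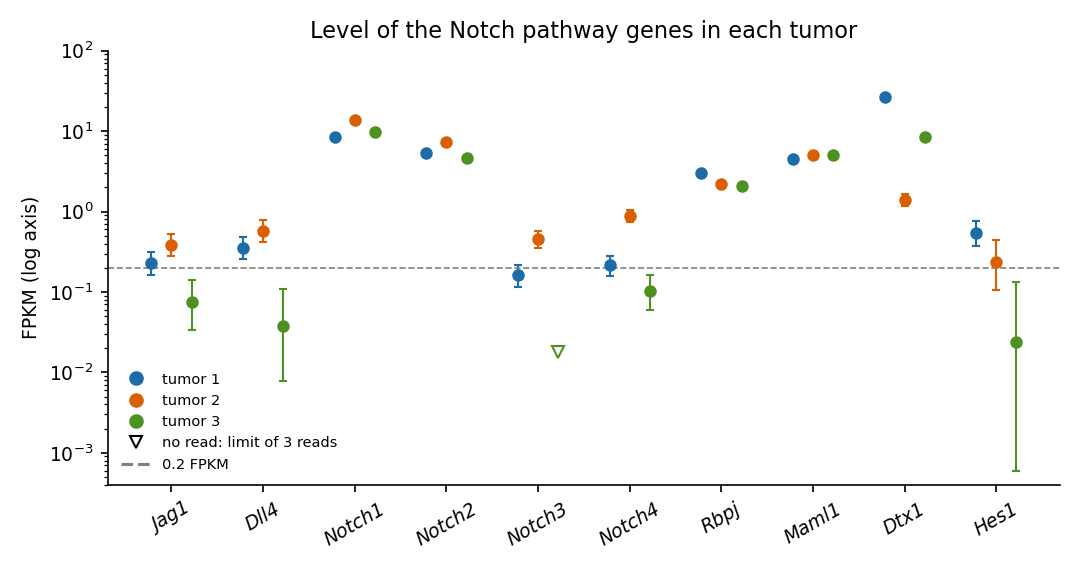
FPKM of the 10 Notch pathway genes (log axis) in tumor 1, tumor 2 and tumor 3; bars are exact 95% Poisson intervals on the recovered reads, and the open triangle is the limit of 3 reads for Notch3 in tumor 3, which had no read. Notch1, Notch2, Rbpj, Maml1 and Dtx1 lie above the dashed line at 0.2 FPKM in every tumor, and the other 5 genes are lowest in tumor 3.

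**Figure D2:**
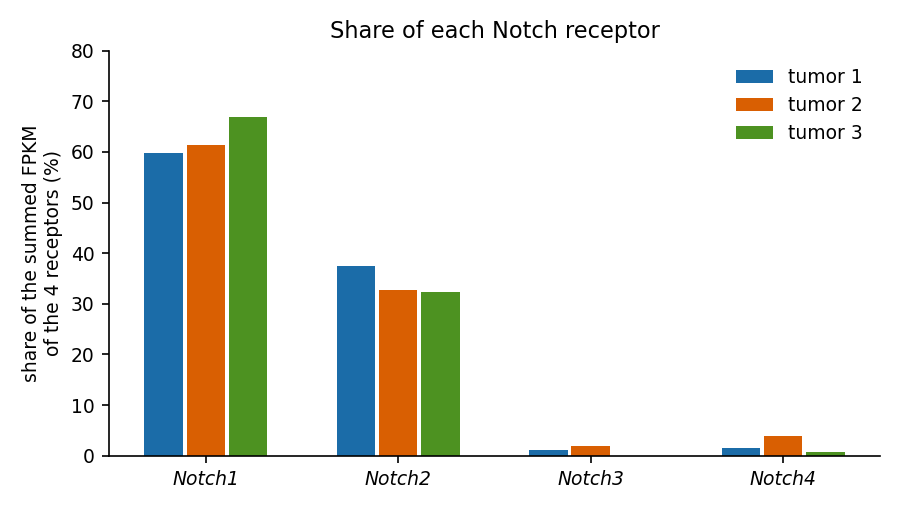
Share of each receptor gene in the summed FPKM of the 4 Notch receptors, in percent, with 1 bar for each tumor. Notch1 takes from 59.8% to 66.9%, Notch2 from 32.3% to 37.5%, and Notch3 (no read in tumor 3) and Notch4 at most 3.87%.

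The promoters of the receptor genes differ in CpG content, the dinucleotide that DNA methyltransferases modify. RefSeq promoters (GRCm38.p6, 250 bases before to 50 bases after the start of transcription) were matched for 9 of the 10 members, all but Hes1. Among the receptors, Notch2 had the most CpG sites in these 300 bases, 41, followed by Notch3 with 25, Notch1 with 23 and Notch4 with 5, and the median of all 32851 promoters was 7. Notch3 and Notch4, the receptor genes with low RNA, thus have promoters of unlike CpG content. The 250 bases before the start are printed for the receptor promoters with the most and the fewest CpG sites, 5′ to 3′ on the plus strand of GRCm38.p6, with each CpG in capitals. They lie at chr3:98013288-98013537 for Notch2 and at chr17:34564045-34564294 for Notch4 and hold 34 and 4 CpG sites. Their methylation was not analysed here.
Notch2: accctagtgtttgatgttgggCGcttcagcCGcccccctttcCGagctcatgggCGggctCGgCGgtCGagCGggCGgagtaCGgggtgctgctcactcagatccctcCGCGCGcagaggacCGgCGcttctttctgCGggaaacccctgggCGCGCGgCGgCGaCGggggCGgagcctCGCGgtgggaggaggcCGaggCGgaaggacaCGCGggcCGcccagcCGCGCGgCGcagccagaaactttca
Notch4: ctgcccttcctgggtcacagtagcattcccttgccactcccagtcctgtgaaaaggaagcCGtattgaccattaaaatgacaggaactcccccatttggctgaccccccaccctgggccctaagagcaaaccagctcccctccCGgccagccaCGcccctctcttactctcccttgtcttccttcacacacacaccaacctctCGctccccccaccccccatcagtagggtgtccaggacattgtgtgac

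Levels of cell type markers are set beside the low members, since Jag1, Dll4, Notch3, Notch4 and Hes1 were each lowest in tumor 3. Their summed level was 1.503, 2.53 and 0.237 FPKM in tumors 1, 2 and 3. Rbpj and Notch2 were lowest in tumor 3 as well, which makes 7 of the 10 members, against 39.9% of the 14721 genes with a mean of at least 0.2 FPKM. This count depends on the scaling, since Notch2 was lowest in tumor 1 with median-of-ratios factors and Notch1 and Maml1 were also lowest in tumor 3 with equal sums. Of the 3010 genes with a mean from 0.2 to 1 FPKM and at least 10 reads in the highest tumor, 53% were also lowest in tumor 3. Blood endothelium was lowest there too, in 8 of 8 genes, with a summed level of 15.2, 16.3 and 5.52 FPKM. Its most abundant gene was Pecam1, which leukocytes also express, at 12.2, 10.9 and 4.86 FPKM. Cdh5, the cadherin of endothelial junctions, had 0.805, 1.39 and 0.126 FPKM, with 11 reads in tumor 3. The 3 lymphatic endothelial genes summed to 4.71, 2.14 and 0.00585 FPKM, and in tumor 3 the most abundant of them, Lyve1, and the lineage factor Prox1 had no read.

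Stromal and gland lists were low in tumor 3 too. The 6 fibroblast genes summed to 11.4, 41.7 and 0.340 FPKM and were all lowest in tumor 3, where the most abundant by mean, the collagen gene Col1a1, had 43 reads and Lum and Pdgfra had none. Of 6 genes of pericytes and smooth muscle, 6 were highest in tumor 2 and 5 were lowest in tumor 3, with sums of 4.92, 23.0 and 1.23 FPKM. The most abundant was Tagln, and Rgs5 and Cspg4 had no read in tumor 3. The 6 pancreatic acinar genes, of which Ctrb1 was the most abundant by mean, summed to 75.5, 363.1 and 0.294 FPKM, and Ctrb1, Cpa1 and Cel had no read in tumor 3. Endothelial, fibroblast, pericyte and acinar sums were thus lowest in tumor 3, as the 5 low Notch pathway genes were.

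Myeloid lists were also lowest in tumor 3. The 7 genes of macrophages and monocytes summed to 303.1, 116.4 and 43.8 FPKM, with Lyz2 the most abundant by mean, though not in tumor 2, and 6 of them were highest in tumor 1 and 6 lowest in tumor 3. The 5 dendritic cell genes summed to 8.61, 6.73 and 3.37 FPKM, with Itgax the most abundant in tumor 1 and by mean only, and 5 of 5 were lowest in tumor 3. B-cell genes had another order. The 7 genes summed to 60.0, 14.4 and 109.5 FPKM, with Cd79a the most abundant, and 7 of 7 were highest in tumor 3 and lowest in tumor 2. With equal sums Fcrla was highest in tumor 1 instead. The 5 epithelial genes summed to 14.2, 2.75 and 0.913 FPKM, almost all of it Cdh1 in tumor 1, and Krt19 had no read in any tumor. Of these 5 genes, 2 were lowest in tumor 3, and 2, Krt8 and Krt18, were lowest in tumor 1. The share of all genes highest in each tumor, or lowest in tumor 1 or tumor 2, was not counted. Counts of that kind, here and for the lists above, therefore do not set a list apart. The lowest sum was in tumor 3 for the endothelial, stromal, acinar, myeloid and epithelial lists alike. The part of any of these cells in the levels of Jag1, Dll4, Notch3, Notch4 and Hes1 was not tested.

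**Figure D3:**
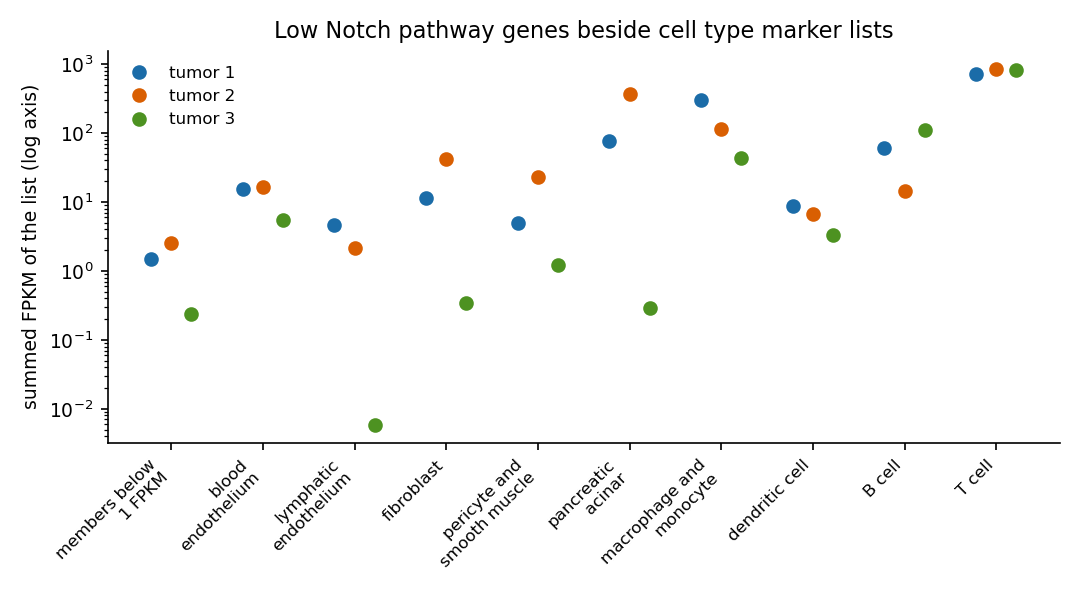
Summed FPKM (log axis) of the 5 Notch pathway genes with a mean below 1 FPKM and of 9 cell type marker lists, with 1 point for each tumor. The 5 low members and 7 of the lists are lowest in tumor 3, B-cells are lowest in tumor 2, and the T-cell sum runs from 708.4 to 862.3 FPKM.

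Of the nuclear proteins, Rbpj (ENSMUSG00000039191), which binds DNA at target genes and holds them off until the receptor domain arrives, had 3.03, 2.20 and 2.08 FPKM in tumors 1, 2 and 3, on 1188, 531 and 552 reads. Maml1 (ENSMUSG00000050567), a Mastermind coactivator, had 4.46, 5.03 and 5.10 FPKM on 757, 527 and 586 reads. Rbpj was highest in tumor 1, by 1.38 times over tumor 2 (1.25 to 1.53) and 1.45 times over tumor 3 (1.31 to 1.61), and a difference between tumors 2 and 3 was not detectable at this depth (ratio 1.05, 0.933 to 1.19). Maml1 varied little, with a coefficient of variation of 7.26% over the 3 tumors. Its highest tumor was 1.15 times its lowest (1.03 to 1.28), and which tumor was highest changed from tumor 3 to tumor 2 with scaling to an equal sum. With median-of-ratios factors the gap was 1.34 times for Maml1 and 1.24 times for Rbpj, so which of them varied less depends on the scaling. The antisense gene Gm26542 covers 2.44% of the exon bases of Maml1.

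Rbpj is the only member whose matched promoters hold TGGGAA, the core of the sequence that the Rbpj protein recognizes, searched on both strands as TGGGAA and TTCCCA. Of all 32851 promoters, 25.6% hold it. Rbpj has 2 promoters in the RefSeq table, with 26 and 28 CpG sites, and they overlap. The windows of 46 bases around the matches, on the plus strand of GRCm38.p6 with the match in capitals, lie at chr5:53590177-53590222 and chr5:53590261-53590306. A match describes these letters and does not show binding.
Rbpj first match: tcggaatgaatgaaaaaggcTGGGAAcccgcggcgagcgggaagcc
Rbpj second match: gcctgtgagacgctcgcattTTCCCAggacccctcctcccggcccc

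In the Mastermind family Maml1 held 48.7%, 56.6% and 51.9% of the summed FPKM in tumors 1, 2 and 3, Maml2 held 50.5%, 43.3% and 47.8%, and Maml3 rested on 24 reads, 1 read and 6 reads. Of the 6 further coactivator genes listed, 5 were above 0.2 FPKM in every tumor, and the remaining gene, Maml3, had a mean of 0.0357 FPKM. Snw1 was the highest by mean, though not in tumor 1, at 12.0 FPKM against 11.9 FPKM for Kat2b. Kat2b, a histone acetyltransferase, was the gene of this list with a gap of at least 2 times and a mean of at least 0.2 FPKM, at 18.0, 9.39 and 8.43 FPKM, though with median-of-ratios factors the gap was 1.82 times. Corepressors and the Rbpj paralog Rbpjl gave 5 of 6 genes above 0.2 FPKM in every tumor. The highest by mean was Hdac1, a histone deacetylase, at 26.5, 12.4 and 13.9 FPKM, with a gap that median-of-ratios factors put at 1.89 times, and the lowest was Rbpjl, a factor of acinar cells, with 6 reads, 7 reads and no read. Kat2b and Hdac1 were highest in tumor 1, as Rbpj was.

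Dtx1 (ENSMUSG00000029603), an E3 ubiquitin ligase of the Deltex family that binds the intracellular part of Notch and is itself induced by the pathway, differed most among the abundant members. Tumors 1, 2 and 3 had 26.3, 1.40 and 8.34 FPKM of Dtx1, on 4260, 140 and 913 reads. Tumor 1 was the highest and tumor 2, which had the most Notch1 RNA, the lowest. A link between the Dtx1 and Notch1 levels was not tested. The ratio of tumor 1 to tumor 2 was 18.8 (15.9 to 22.4), that of tumor 3 to tumor 2 was 5.96 (4.98 to 7.17), and that of tumor 1 to tumor 3 was 3.15 (2.94 to 3.39). These intervals lie above 1 and cover counting error only. The order of the tumors was the same under both other scalings. In the Deltex family, Dtx1 held 36.8%, 2.00% and 21.1% of the summed FPKM in turn. The coreceptor, immature thymocyte and B-cell sums were also lowest in tumor 2, under each of the 3 scalings. The immature thymocyte sum was highest in tumor 1, mostly through Dntt at 10.3 FPKM, whose reads were not whole. In that list Rag2 and Ptcra had no read in any tumor, and Cd1d1 was highest in tumor 3 as deposited. The B-cell sum was highest in tumor 3. The highest tumor of the coreceptor sum changed from tumor 1 to tumor 3 with median-of-ratios factors. The part of the cells that carry these markers in the Dtx1 levels was not tested.

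The Dtx1 promoter is printed because Dtx1 had the widest gap among members above 1 FPKM. It lies on the minus strand of GRCm38.p6, its 250 bases before the start span chr5:120711670-120711919, and it is shown 5′ to 3′ on that strand with its 15 CpG sites in capitals. Over the full 300 bases it has 26 CpG sites, more than 83.1% of all promoters.
Dtx1: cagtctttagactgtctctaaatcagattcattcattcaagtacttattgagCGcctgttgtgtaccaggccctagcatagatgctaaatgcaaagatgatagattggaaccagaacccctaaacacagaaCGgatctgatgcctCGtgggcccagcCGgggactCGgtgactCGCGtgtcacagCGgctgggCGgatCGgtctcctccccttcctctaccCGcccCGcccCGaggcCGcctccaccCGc

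Hes1 (ENSMUSG00000022528), a transcriptional repressor and one of the most direct targets of Notch, was low. Tumors 1, 2 and 3 had 0.543, 0.233 and 0.0236 FPKM of Hes1, on 34 reads, 9 reads and 1 read. Tumor 1 was highest, as for Dtx1, but tumor 3 and not tumor 2 was lowest. The ratio of tumor 1 to tumor 2 was 2.33 (1.10 to 5.53). Against the single read of tumor 3 the ratio was 23.0 for tumor 1, with an interval of 3.86 to 934.2, and 9.85 for tumor 2, with an interval of 1.37 to 431.9. So the 2 members known as targets differed in level, with means of 12.0 FPKM for Dtx1 and 0.267 FPKM for Hes1, and in the order of the tumors.

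Further genes known as Notch targets, all with other regulators too, covered a wide range. Of 13 such genes 8 were above 0.2 FPKM in every tumor. Tcf7, a T-cell transcription factor, was the highest with a mean of 156.3 FPKM. The fewest reads were those of Ptcra, with none in any tumor, and of Hey2, a repressor related to Hes1, with 1 read in all. The Hes and Hey genes Hes5, Hey1, Hey2 and Heyl had at most 10 reads in any tumor. Among the genes with a gap of at least 2 times, Nrarp, a feedback inhibitor of the pathway, had 2.86, 4.92 and 7.68 FPKM and was highest in tumor 3. Il2ra, the alpha chain of the interleukin-2 receptor, had 43.2, 9.98 and 1.96 FPKM. Il7r, the interleukin-7 receptor, had 30.7, 0.641 and 64.5 FPKM. Il2ra was highest in tumor 1 and Il7r was lowest in tumor 2, while Notch1 RNA was highest in tumor 2. Receptor cleavage was not measured, and a link of either gene to Notch1 was not tested. Igf1r, a growth factor receptor, had 1.85, 0.320 and 0.376 FPKM. Gata3, a T-cell transcription factor, had 5.06, 2.31 and 4.55 FPKM, lowest in tumor 2, and whether tumor 1 or tumor 3 was highest changed with median-of-ratios factors. The 8 targets above 0.2 FPKM thus had no common order of the tumors. The order of Il2ra, from tumor 1 down to tumor 3, was also that of the macrophage, dendritic cell, lymphatic endothelial and epithelial sums. Single genes of these lists differed, as Cd68, Clec9a, Zbtb46, Flt4, Epcam, Krt8 and Krt18 were highest in tumor 2 and Itgam was lowest there. In the epithelial list only Cdh1 had the order of Il2ra. The order of Il7r, highest in tumor 3 and lowest in tumor 2, was also that of the B-cell sum. As deposited, Cd8b1 had it too, and the coreceptor sum had it with median-of-ratios factors only. The part of any of these cells in the Il2ra and Il7r levels was not tested.

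**Figure D4:**
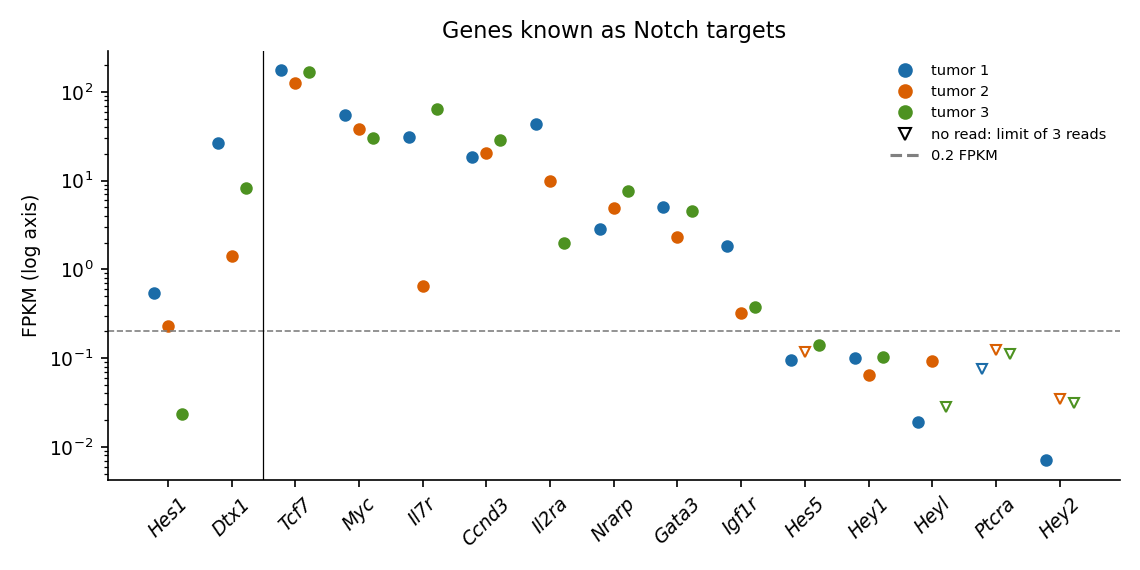
FPKM (log axis) of Hes1 and Dtx1, left of the vertical line, and of 13 further genes known as Notch targets in the 3 tumors, ordered by mean; open triangles are the limit of 3 reads for a gene without a read, and the dashed line is 0.2 FPKM. Il7r runs from 0.641 FPKM in tumor 2 to 64.5 FPKM in tumor 3, and Hes5, Hey1, Heyl, Ptcra and Hey2 lie below the dashed line.

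Genes of enzymes that process ligands and receptors were mostly above 0.2 FPKM in every tumor, as were 36.7% of all gene symbols. Of the 5 genes of receptor glycosylation all were above 0.2 FPKM in every tumor, and Lfng, a fringe enzyme that extends sugars on Notch and shifts its preference among ligands, was the highest at 72.0, 122.2 and 84.3 FPKM. Lfng made up 76.8%, 76.8% and 74.9% of the summed FPKM of the 3 fringe genes. Pofut1, which adds the fucose that fringes extend, was the lowest of the list by mean, though not in tumors 2 and 3, at 3.91, 3.70 and 3.90 FPKM, and Poglut1, which adds glucose, had 5.84, 2.69 and 3.72 FPKM, a gap that median-of-ratios factors put at 1.92 times. Of the 10 genes of receptor cleavage 8 were above 0.2 FPKM in every tumor. The gamma-secretase subunit gene Aph1a was highest by mean, though not in tumor 1, at 16.7, 36.7 and 33.2 FPKM. Aph1c was lowest by mean, though not in tumors 2 and 3, at 0.153 FPKM. Furin, which cleaves the receptor on its way to the surface, had 10.2, 13.3 and 5.92 FPKM. Aph1a and Furin, both highest in tumor 2, were the genes of this list with a gap of at least 2 times and a mean of at least 0.2 FPKM.

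Ligand endocytosis and receptor turnover had wider gaps in single genes. Of 4 genes of ligand endocytosis 3 were above 0.2 FPKM in every tumor. Mib2, an E3 ubiquitin ligase of ligands, had the highest mean, with 1.07, 10.4 and 6.24 FPKM. Neurl1b, another ligase of ligands, had 1.06, 1.54 and 0.494 FPKM, and Neurl1a, the lowest, had a mean of 0.0133 FPKM. Of 8 genes of turnover and inhibition 7 were above 0.2 FPKM in every tumor, with Dtx3l highest at a mean of 31.9 FPKM. Dtx3, of the Deltex family, had 9.78, 19.4 and 5.20 FPKM. Numbl, related to the Notch inhibitor Numb and the lowest of the list, had 0.0788, 1.03 and 0.139 FPKM, and Numbl, like Mib2, Dtx3 and Neurl1b, was highest in tumor 2.

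By mean level the 10 members ran from Dtx1 with 12.0 ± 12.9 FPKM (SD, n = 3), through Notch1 with 10.7 ± 2.82, Notch2 with 5.82 ± 1.41, Maml1 with 4.86 ± 0.353 and Rbpj with 2.44 ± 0.518, to 5 genes below 1 FPKM. The latter were Notch4 with 0.397 ± 0.419, Dll4 with 0.322 ± 0.270, Hes1 with 0.267 ± 0.261, Jag1 with 0.231 ± 0.157 and Notch3 with 0.206 ± 0.227 FPKM. Of neighbors in this order, the ranges over the 3 tumors were apart for Notch1 and Notch2, for Maml1 and Rbpj, and for Rbpj and Notch4. They overlapped for Dtx1 and Notch1, for Notch2 and Maml1, and between all neighbors from Notch4 to Notch3. Dtx1 was above Notch1 in 1 of the 3 tumors, and without tumor 1 its mean was 4.87 FPKM. The means of the low genes also rest on single tumors, being 0.128 FPKM for Hes1 without tumor 1, and 0.158, 0.196, 0.152 and 0.0836 FPKM for Notch4, Dll4, Jag1 and Notch3 without tumor 2. Set among the 14721 genes with a mean of at least 0.2 FPKM, the mean of Notch1 was at or above that of 78.3%. The mean of Notch3 was at or above that of 0.516% of these genes. It lies just above the filter, which sets this low place. The rest of the 34197 gene symbols, with lower means, were not ranked.

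Above 0.2 FPKM in every tumor were 5 of the 10 members, Notch1, Notch2, Rbpj, Maml1 and Dtx1, against 36.7% of all 34197 gene symbols. Without tumor 3 the count was 9, as Notch4, Hes1, Jag1 and Dll4 passed in both other tumors. Of the 55 further pathway genes 42 passed, and without tumor 3 it was 43. Without tumor 3 the share of all genes was 39.1%. For the 3531 genes with a mean from 0.2 to 1 FPKM, the level of the 4 members gained, it was 46.6% in all tumors and 65.1% without tumor 3, while 38 of the further genes were above 1 FPKM in every tumor and thus far from the threshold.

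The highest tumor had at least 2 times the level of the lowest for 6 of the 10 members, Dtx1, Notch3, Notch4, Hes1, Jag1 and Dll4, against 43.3% of the 14721 genes with a mean of at least 0.2 FPKM. The share of all genes depends on the level. It was 34.4% from 1 FPKM upward, where 1 of 5 members passed, and 71.7% from 0.2 to 1 FPKM, where 5 of 5 members passed. With at least 10 reads in the highest tumor, a filter added after the data were seen, the latter share was 77.1%. A gap of at least 2 times was thus the more common case at the level of the low members. Each of the 5 low members passed the filter on the mean only through its highest tumor. Without that tumor its mean was below 0.2 FPKM, at most 0.196 FPKM for Dll4. The filter thus favors a gap in these genes, and 5 of 5 is no finding about them. The third quartile of the genes from 0.2 to 0.5 FPKM with at least 10 reads was 9.72 times, which Notch3, Hes1 and Dll4 exceeded and Notch4 and Jag1 did not, and the lowest tumor of Hes1 and Dll4 had 1 read and 3 reads. Of the 55 further genes 44 had a mean of at least 0.2 FPKM, and 16 of these had a gap of at least 2 times, or 8, 7 and 10 without tumor 1, tumor 2 and tumor 3, where the share of all genes fell as well, from 43.3% to 23.2%, 24.4% and 32.1%. Among the same 44 genes, with median-of-ratios factors 13 of the 16 kept such a gap, Poglut1, Kat2b and Hdac1 lost it, and Mfng, Tle3 and Dtx4 gained it. With equal sums all 16 kept it and Adam17, Dtx3l, Dtx4 and Myc gained it, and the count was 22 where the filter on the mean was applied after that scaling, which lets more genes pass.

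**Figure D5:**
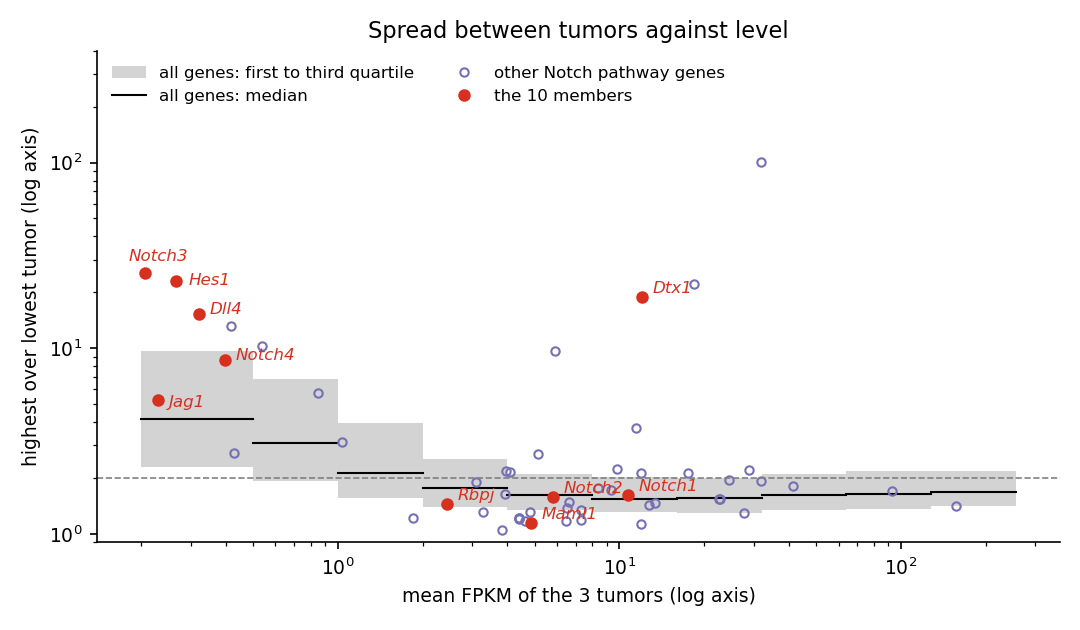
Highest over lowest tumor (log axis) against the mean FPKM of the 3 tumors (log axis) for the 10 members and for the 44 further pathway genes with a mean of at least 0.2 FPKM, Notch3 against the limit of 3 reads in tumor 3; grey boxes run from the first to the third quartile of all genes of that level with at least 10 reads in the highest tumor, black lines are their medians, and the dashed line marks 2 times. Dtx1, at 18.8 times, lies above the box of its level, Notch1, Notch2 and Rbpj lie within theirs, and Maml1, at 1.15 times, lies below.

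Over the 3 tumors, the genes whose profile was nearest to that of Notch1 were Mtch1, Gm36956 and Zfp646. Nearness was the Euclidean distance between log2 FPKM profiles centered on their means. It was taken over 11078 of the 11190 genes with a mean of at least 1 FPKM, and the rest were not compared. Mtch1 had 17.2, 27.9 and 19.3 FPKM, at a distance of 0.01. Gm36956 had 3.35, 5.42 and 3.82 FPKM, and Zfp646 had 7.80, 12.7 and 8.76 FPKM. With only 3 tumors many genes lie close, and 138 genes were within a distance of 0.1.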

How the data were processed

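RNA-seq (paired-end, 150 bp) of 3 Dnmt3b+/- PTCL was used. The authors trimmed and aligned reads to mm10 with STAR, quantified them in SeqMonk and deposited FPKM per gene. Versions and the strand used in counting are not given in the sources used here. Sums of FPKM were 188740, 206902 and 223767. Depth was recovered from unread genes (0.9 read), and reads from GENCODE M21 exon lengths. Of genes with a length, 92.2% gave whole reads in all tumors, to within 0.02 read. Notch3 gave 40.2 and 69.4, which exons 0.556% shorter turn into 40 and 69. Of repeated symbols the gene of highest mean was kept. Unread genes entered ratios at 3 reads.

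The members and lists were chosen with earlier results of these data known. All members are named. Of pathway lists, the highest and lowest gene and each gene with a gap of at least 2 times and a mean of at least 0.2 FPKM are named, of marker lists the highest gene and those without a read in every tumor, and for Notch1 the 3 nearest genes. Other named genes, and shares within the ligand, fringe, Mastermind and Deltex families, were chosen after their values were seen. Alternatives were other scalings (sum of 1000000, median-of-ratios), thresholds, folds, a pseudocount of 0.1, filters, summed symbols, and each tumor left out. Only recovery of depth and reads and the rule for a gap of at least 2 times were tested on simulated data. Those data gave unread genes the same 0.9 read, so they do not test that value. Promoters are from RefSeq. Software was SciPy 1.17.1, NumPy 2.4.6, pandas 2.3.3 and matplotlib 3.10.9 under Python 3.11.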

Additional observations from a re-analysis of the deposited data

How the results depend on the processing

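Only values that a setting could change are counted here. Of 33 such values of the counts and of the Notch1 share, 27 stayed within 1.5 times the reported count or within 1 SD of the reported share. With 1 tumor left out, the members above 0.2 FPKM in every tumor numbered 5 to 9, against 5 with all, and further pathway genes with a gap of at least 2 times numbered 7 to 10, against 16. Fewer tumors leave fewer gaps, and the highest count of the members came without tumor 3. With a fold of 1.5 that count of further genes was 26, and with a fold of 3 it was 8, since the fold itself sets it. The Notch1 share of the receptors was 60.6% to 64.2% with 1 tumor left out, and a share within a tumor cannot change with scaling. Of 50 ratios of the highest to the lowest tumor of a member, 17 moved by over 1.5 times. Of 50 means of members, 10 moved by over 1 SD, all under a sum of 1000000, which multiplies FPKM by 4.47 to 5.30. As the SD of the members is wide, this hides shifts by over 1.5 times with 1 tumor left out, such as that of Dtx1 from 12.0 to 4.87 FPKM. The share of all genes with a gap of at least 2 times, 43.3%, lay between 23.2% and 69.4% under 12 settings and outside its binomial interval in 10 of them. The order of the tumors changed with scaling for 3 of 10 members and 25 of 55 further genes. Such changes were not counted over all genes, so neither count sets these genes apart. No paired analysis was possible because RNA was measured in 1 group and no test was made. Depth limits Hes1, Dll4, Jag1, Notch3 and Notch4, which rest on at most 17 reads in tumor 3, and ratios against that tumor have wide intervals.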
